A study of Gallus gallus with 66 samples.

Results

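Transcription factors that drive or restrain fat cell formation were followed in chicken preadipocytes, from freshly isolated cells through passaged culture to 120 h with or without oleate. The members were the probe sets that the platform annotation assigns to 4 drivers, PPARG, CEBPA, CEBPB and EBF1, and 2 repressors, GATA2 and GATA3. These 6 genes, of 13009 named on the array, had 10 of its 38535 probe sets: 3 for PPARG, 2 each for CEBPA and EBF1, and 1 each for CEBPB, GATA2 and GATA3. A probe set was tested where it lay above the array median on all 3 arrays of at least 1 group, as did 22060 probe sets. Of the members' probe sets 9 were tested, for 5 of the 6 genes; GATA2 was not. Drivers and repressors are the roles known for these genes, mainly in mouse, and were not read from these data.

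The cells came from a lean and a fat chicken line, named for their abdominal fat content, and their RNA was hybridised to 66 Affymetrix arrays in 22 groups of 3. Within a line, abdominal fat pads of 15 male chicks (10 days old) were combined and digested with collagenase, mature fat cells were removed by flotation and red cells by a lysis buffer. Each line gave 11 groups: the uncultured cells, cells passaged once and taken at 50% confluence (named −12 h), cells at 95% confluence (0 h), and cells 12, 24, 72 and 120 h later, either with 160 µg/ml oleate or in control medium. All groups of a line thus go back to pooled tissue of the same 15 birds by the description; a group's 3 arrays are labelled as biological replicates, and which pools or dishes they came from is not stated. Every p-value therefore measures only the spread between these arrays, which may be technical. The cells are primary and were not sorted by a surface marker, as far as the labels tell.

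PPARG is a nuclear receptor that binds fatty acid derivatives and switches on the genes of lipid uptake and storage, and it is the factor without which mouse fat cells do not form. CEBPB acts early in the program and turns on PPARG and CEBPA, which then maintain each other's expression, while EBF1 acts in committed precursors. GATA2 and GATA3 are zinc finger factors that hold mouse preadipocytes in the undifferentiated state, and GATA3 is also known as the master factor of helper T cells. Oleate, a common dietary fatty acid, is used to make chicken preadipocytes fill with lipid.

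The label of preadipocytes was set against marker genes. PDGFRB, THY1, LUM, DCN, COL1A1, COL1A2, COL3A1 and ENG, genes of stromal cells and their matrix, lay above the array median on every one of the 66 arrays, while DLK1, a preadipocyte marker, was below it on every cultured array. Of the other 3 genes of that list, CD34 and PDGFRA were above it on every uncultured array, CD34 was below it on every array at 0 h, and NT5E was below it on every array at −12 h, at 0 h and in oleate. The endothelial genes PECAM1, VWF, ERG and SOX18 and the epithelial keratin gene KRT7 were above it on every array, but other genes of their lists were not. TEK, TIE1 and EMCN of the endothelial list and EPCAM of the epithelial list were below it on every cultured array. KDR, also endothelial, was below it on every array at −12 h, at 0 h and in oleate. Of 8 adipocyte genes, FABP4 and LPL were above it on every array, and ADIPOQ and CD36 on every uncultured array. CIDEA and GPD1 were below it on every uncultured array, PCK1 on every cultured array and PLIN1 on every array at −12 h. The uncultured cells also held blood and immune transcripts. The mean level of 9 T lymphocyte genes was 5.77 to 6.42 (lowest to highest array) in uncultured cells and 2.01 to 3.24 in culture. For KIT, HDC and CSF3R, genes of mast cells and granulocytes, the mean was 4.66 to 5.39 and then 1.61 to 2.40, with all 3 below the array median on every cultured array. Macrophage genes remained in culture, as given beside the results below. Arrays also fell into 2 styles of file name: those of control cultures from 12 h on and of the fat line at −12 h shared one, and the others had a dotted one, apart from 1 fat line oleate array with no name in the labels.

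A level is the deposited value of a probe set, taken as log2, with a median of 4.17 on every array. Levels of different probe sets were not compared with each other. Where arrays of groups are said not to overlap, the share of all probe sets that did so is not given. Such gaps and their counts are therefore not read as particular to a gene. Differences are log2 differences with the standard error (SE) of a linear model over all arrays, fitted with limma, and a probe set or gene is called higher or lower at an adjusted p under 0.05 (Benjamini-Hochberg over the 22060 tested). A gene with several probe sets is represented by the tested one with the highest mean over the 66 arrays, and the others follow as the second and the third in the order of that mean.

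**Figure D1:**
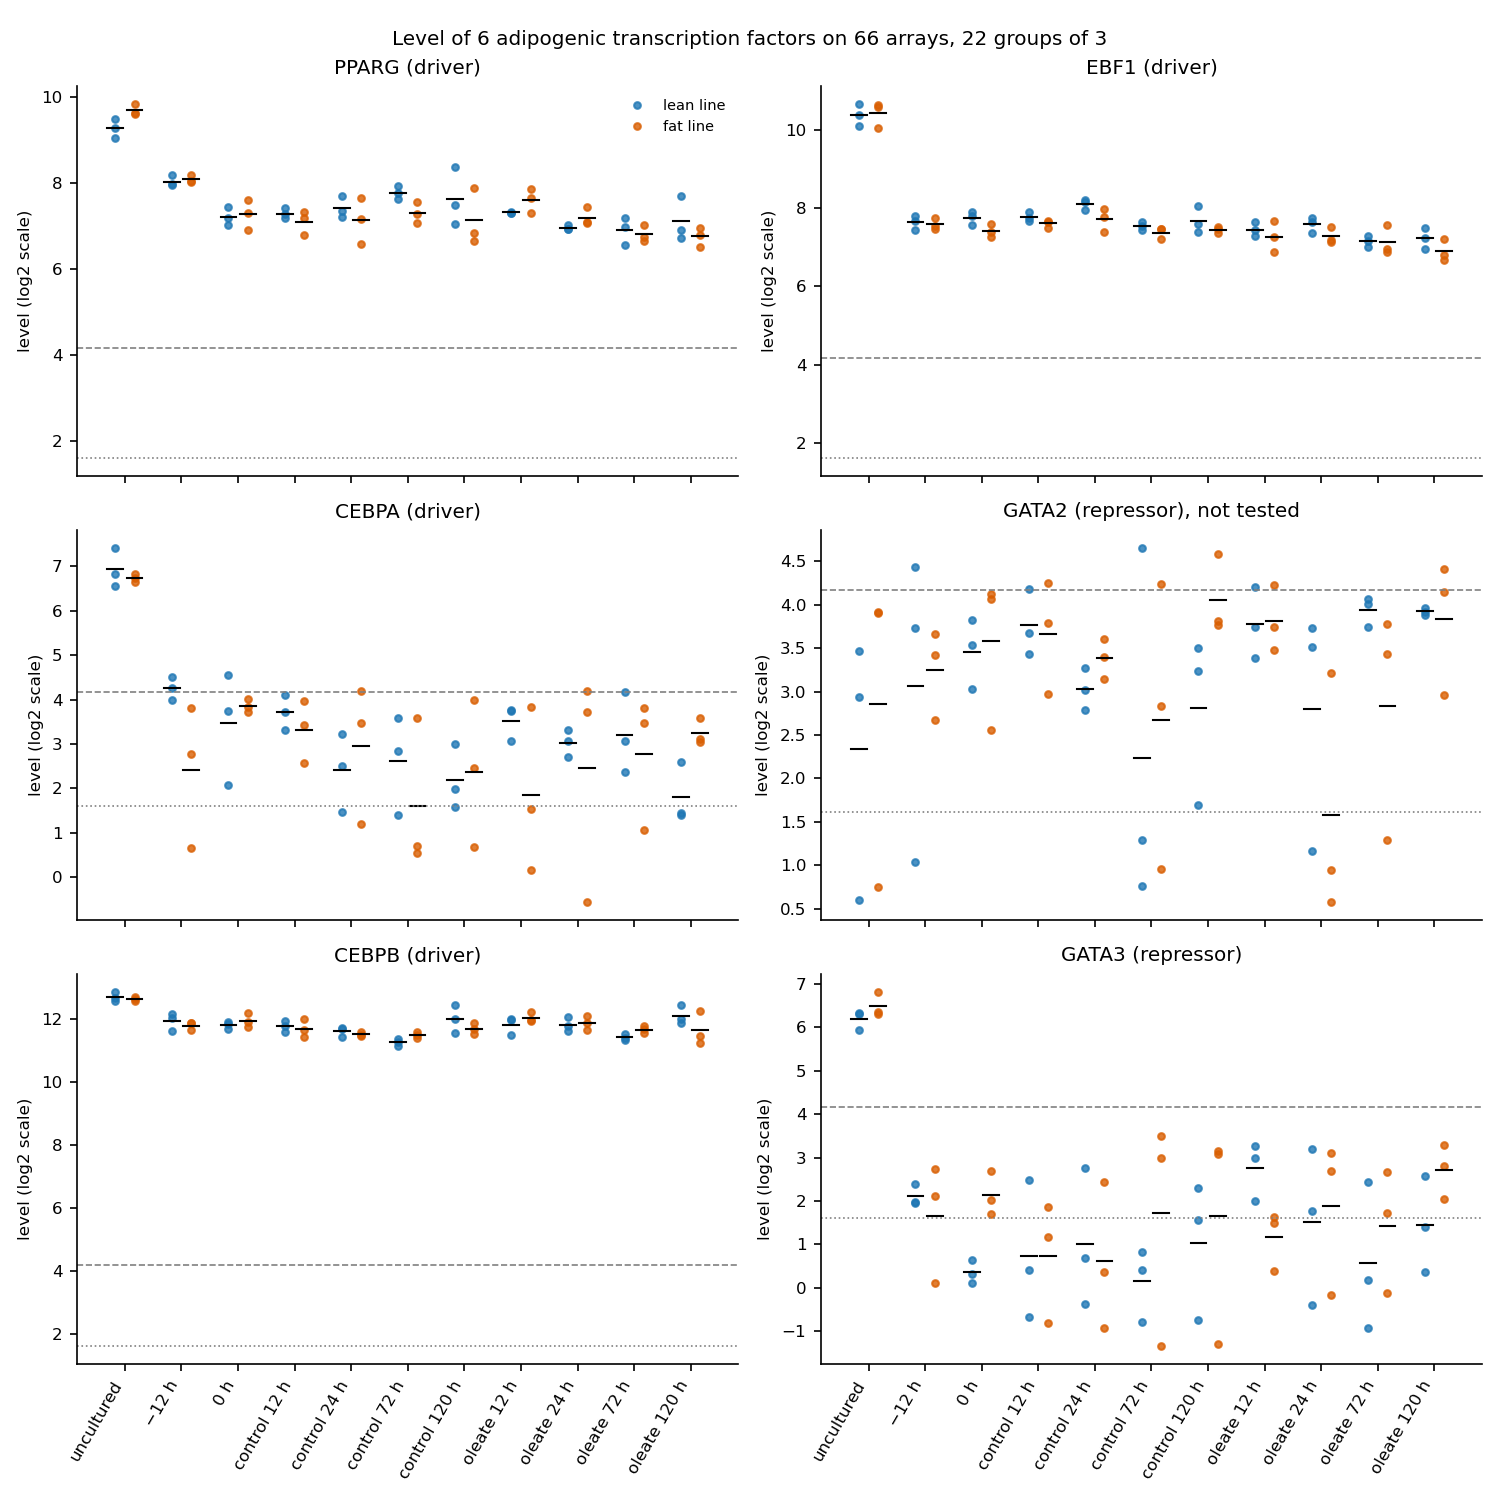
Level (log2) of each of the 6 genes on every array, by group, with 1 panel per gene and its own vertical range; blue points are the lean and orange points the fat line, black bars are group means, the dashed line is the array median of 4.17 and the dotted line the floor of 1.61. PPARG, EBF1, CEBPB, CEBPA and GATA3 are highest in the uncultured cells, and GATA2 has no such step, its group means running from 1.58 to 4.05.

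PPARG was highest in uncultured cells and fell stepwise. Its 3 arrays read 9.04, 9.28 and 9.49 in uncultured lean cells, against 9.60, 9.62 and 9.84 in uncultured fat cells. At −12 h the arrays lay at 7.95, 7.97 and 8.18 for lean cells and at 8.01, 8.05 and 8.19 for fat cells, and at 0 h at 7.02, 7.18 and 7.44 and at 6.90, 7.31 and 7.60. The 3 stages did not overlap in either line. In control medium the lean line averaged 7.29 ± 0.12 (SD, n = 3), 7.42 ± 0.25, 7.77 ± 0.15 and 7.63 ± 0.68 at 12, 24, 72 and 120 h, and the fat line 7.10 ± 0.27, 7.14 ± 0.53, 7.30 ± 0.25 and 7.13 ± 0.66. With oleate the lean line averaged 7.31 ± 0.02, 6.96 ± 0.05, 6.90 ± 0.32 and 7.11 ± 0.51, and the fat line 7.60 ± 0.28, 7.20 ± 0.20, 6.81 ± 0.20 and 6.76 ± 0.23. Fat cells after 120 h of oleate thus had the lowest mean of the 22 groups. In the order of the 22 means only 3 of the 21 pairs of neighbours had arrays that did not overlap: fat above lean in uncultured cells, uncultured lean above fat −12 h, and lean −12 h above lean control at 72 h.

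EBF1, by its first probe set, fell once, on passage, and then moved within a narrow range. Uncultured arrays read 10.10, 10.38 and 10.67 for lean cells and 10.04, 10.58 and 10.64 for fat cells. At −12 h they read 7.43, 7.67 and 7.79, and 7.46, 7.55 and 7.76, and at 0 h 7.56, 7.80 and 7.91 in the lean against 7.25, 7.40 and 7.58 in the fat line. Every uncultured array was above every cultured one, and −12 h and 0 h overlapped. Control means over 12, 24, 72 and 120 h were 7.78 ± 0.11, 8.11 ± 0.14, 7.54 ± 0.10 and 7.68 ± 0.34 for lean cells, and 7.61 ± 0.10, 7.71 ± 0.29, 7.38 ± 0.15 and 7.45 ± 0.08 for fat cells. Oleate means were 7.45 ± 0.18, 7.59 ± 0.20, 7.15 ± 0.14 and 7.23 ± 0.26 for lean cells, and 7.27 ± 0.39, 7.28 ± 0.20, 7.13 ± 0.39 and 6.90 ± 0.28 for fat cells. The highest cultured mean was that of lean control cells at 24 h and the lowest that of fat oleate cells at 120 h, and 2 of the 21 neighbouring pairs of groups had arrays that did not overlap. The second EBF1 probe set read 5.56 to 5.89 at −12 h and 4.63 to 5.21 at 0 h in the fat line. That difference was not called (−0.69, adjusted p = 0.0595, limma), and in the lean line the 2 stages overlapped.

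CEBPB was well above the array median everywhere and had the smallest step into culture of the tested drivers. Uncultured arrays read 12.58, 12.66 and 12.87 for lean cells and 12.57, 12.63 and 12.71 for fat cells. At −12 h they read 11.62, 12.02 and 12.16, and 11.65, 11.86 and 11.86; at 0 h they read 11.68, 11.85 and 11.91, and 11.75, 11.92 and 12.18. The uncultured arrays were the highest, and the later stages overlapped. Control means over the 4 hours were 11.77 ± 0.18, 11.61 ± 0.15, 11.26 ± 0.12 and 12.01 ± 0.44 for lean cells and 11.69 ± 0.28, 11.51 ± 0.06, 11.49 ± 0.09 and 11.69 ± 0.16 for fat cells. With oleate they were 11.82 ± 0.29, 11.81 ± 0.23, 11.41 ± 0.10 and 12.11 ± 0.31 for lean cells and 12.05 ± 0.16, 11.87 ± 0.22, 11.66 ± 0.11 and 11.66 ± 0.52 for fat cells. The lowest and the highest cultured mean both belonged to the lean line, in control at 72 h and in oleate at 120 h.

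CEBPA was above the array median in uncultured cells and near or below it in culture. Uncultured arrays read 6.55, 6.83 and 7.42 for lean cells and 6.65, 6.73 and 6.83 for fat cells. At −12 h they read 3.98, 4.27 and 4.51 for lean cells and 0.66, 2.77 and 3.81 for fat cells, and at 0 h 2.08, 3.74 and 4.56, and 3.71, 3.82 and 4.01. Over the 24 control arrays the lowest, median and highest were 0.56, 2.93 and 4.20, and over the 24 oleate arrays −0.55, 3.07 and 4.19. Only 11 of the 66 arrays lay above the array median, 6 of them uncultured, and 14 of the 60 cultured arrays lay at or under the floor of 1.61 used in the fit. The second CEBPA probe set separated the stages less: uncultured arrays read 2.48, 4.68 and 5.26 for lean cells and 5.08, 5.08 and 5.76 for fat cells, while fat control cells at 72 h read 3.76, 4.33 and 6.04. Group means of the 2 CEBPA probe sets correlated with r = 0.53 over 22 groups and −0.07 over the 20 cultured groups, so statements on CEBPA in culture rest on values near background.

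GATA3 was present above the array median on the 6 uncultured arrays only. It read 5.94, 6.30 and 6.32 in uncultured lean and 6.32, 6.36 and 6.82 in uncultured fat cells. Over the 6 arrays at −12 h it ranged from 0.11 to 2.75; at 0 h it read 0.12, 0.32 and 0.64 for lean cells and 1.69, 2.03 and 2.69 for fat cells. Control arrays had a lowest, median and highest level of −1.34, 0.76 and 3.49, and oleate arrays of −0.92, 1.88 and 3.30. No cultured array reached the array median, and 28 of the 60 lay at or under the floor, so no order was read among the cultured groups. GATA2 gave no such step. It read 0.60, 2.93 and 3.47 in uncultured lean and 0.74, 3.91 and 3.92 in uncultured fat cells, and over all arrays ranged from 0.58 to 4.66. Control arrays had a lowest, median and highest of 0.75, 3.41 and 4.66, and oleate arrays of 0.58, 3.74 and 4.41. It was above the array median on 9 of the 66 arrays, all of them cultured, and in the order of its 22 group means no 2 neighbours had arrays apart.

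The step from tissue to culture asks what the isolated cells lose when they are plated and passaged. After passage (−12 h minus uncultured) all 3 well detected drivers were lower in both lines by their representative probe sets. The comparisons on passage were added after the data were seen. The third PPARG probe set was not called (−0.02 for lean and −0.20 for fat cells). In the fat line the stages also differ in name style, which cannot be told apart from passage there. EBF1 fell by 2.75 on the log2 scale in the lean line (adjusted p = 1.11e-17, limma) and by 2.83 in the fat line (3.18e-18). PPARG fell by 1.24 (adjusted p = 4.29e-05) and 1.60 (4.22e-07), and CEBPB by 0.77 (0.000334) and 0.85 (8.49e-05). CEBPA fell by 2.68 (adjusted p = 0.000997) and 4.01 (2.8e-06), in the same order of lines. GATA3, the tested repressor, stood at −4.08 (adjusted p = 3.89e-10) and −4.34 (6.92e-11). Of all probe sets 56% were called in lean cells, 22.6% lower, and 56.8% in fat cells, 23.2% lower. CEBPA and GATA3 passed the filter through the uncultured groups, so both had to be lower in culture. Neither their p-values nor the count of genes are read as support. In a bulk sample, fewer cells of a type and less RNA per cell cannot be told apart.

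The whole way from uncultured to confluent cells (0 h minus uncultured, over both lines) gave a log2 difference of −2.82 ± 0.13 (SE) for EBF1, or 7.05-fold lower (adjusted p = 1.28e-24, limma). PPARG stood at −2.24 ± 0.18, 4.71-fold lower (adjusted p = 7.72e-16), and CEBPB at −0.79 ± 0.13, 1.73-fold lower (adjusted p = 4.71e-07). Both lines showed this, with none of the 6 uncultured arrays overlapping the 6 at 0 h. CEBPA stood at −3.18 ± 0.49 (adjusted p = 1.54e-07). GATA3 was at least 22.2-fold lower (−4.47 ± 0.34, adjusted p = 1.27e-16), a bound because all 3 lean arrays at 0 h were at the floor. In this comparison 68.9% of probe sets were called, 28.1% lower. All 9 tested probe sets of the members were lower, but for both of CEBPA and that of GATA3 the filter had fixed the direction. Neither the p-values of these 2 genes nor the count are read as support. By line, 57.7% of probe sets were called for lean and 59.5% for fat cells, and among the members' probe sets the second of CEBPA missed the threshold for lean cells (−1.53, adjusted p = 0.079). The difference between lines in this effect was called for 3.63% of probe sets and for none of the 5 genes, of which 0 had an unadjusted p under 0.05 (limma). GATA2, fitted without the filter on low values, stood at 0.61 with an adjusted p of 0.359.

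**Figure D2:**
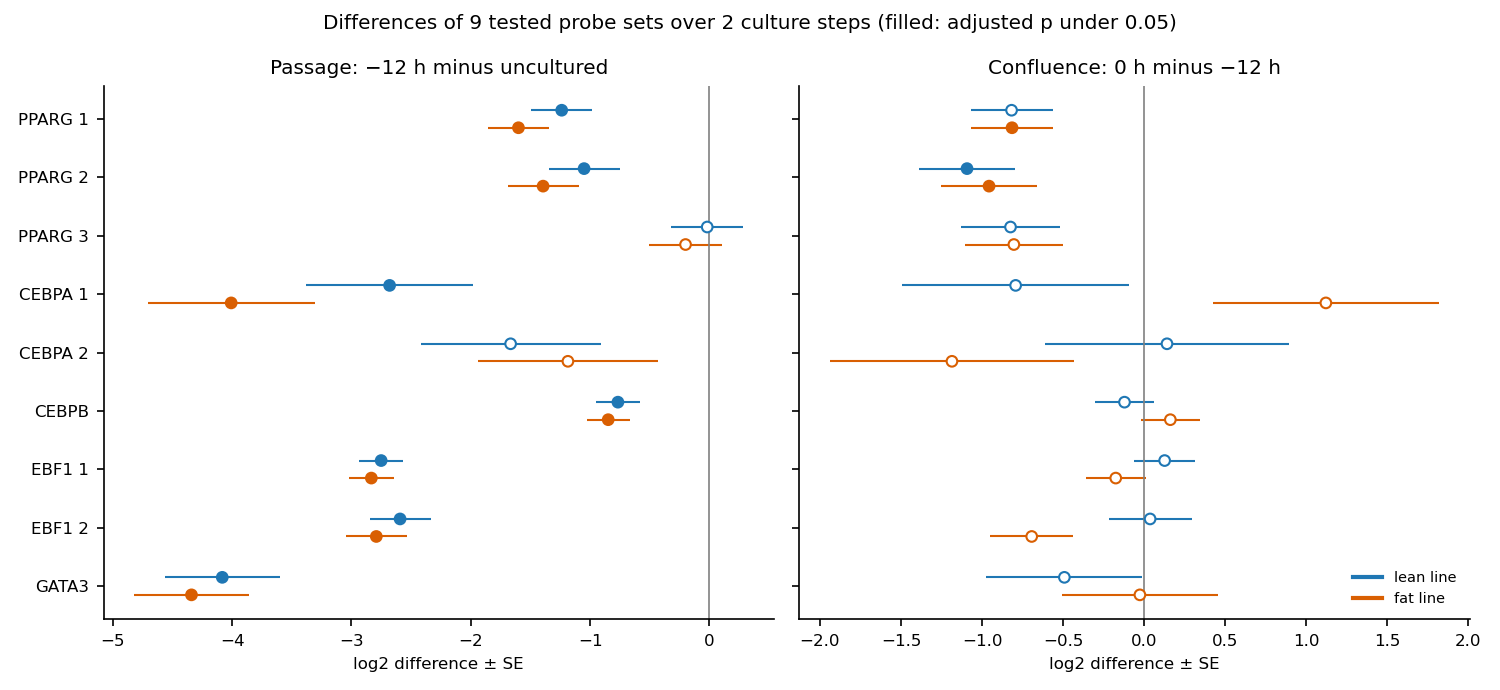
Log2 difference (horizontal axis, ± SE) of the 9 tested probe sets on passage (−12 h minus uncultured) and on reaching confluence (0 h minus −12 h), in the lean (blue) and fat (orange) line; filled points have an adjusted p under 0.05. EBF1, CEBPB, GATA3 and the first CEBPA probe set are called on passage and not at confluence, and the first PPARG probe set lies under 0 at both steps in both lines. For CEBPA and GATA3 the filter had fixed the direction on passage.

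Other cell types' genes moved at the same step. All 8 tested T lymphocyte genes and all 3 mast cell and granulocyte genes were lower at 0 h than in uncultured cells, though 7 and 3 of these had passed the filter through uncultured cells alone. Lower too were 12 of 14 macrophage, 7 of 9 endothelial (1 was higher), 3 of 5 adipocyte and 8 of 10 preadipocyte and stromal genes. So were 2 of 5 B lymphocyte, 2 of 4 mesothelial and epithelial and 2 of 2 erythroid genes. Among all these, 1 macrophage, 3 endothelial, 1 B lymphocyte and 1 epithelial gene had passed the filter through uncultured cells alone. Of the B lymphocyte list, PAX5 lay above the array median on every array at 0 h and POU2AF1 below it. The mean of the macrophage list was 9.97 to 10.80 on uncultured arrays, 7.12 to 8.97 at −12 h and 6.83 to 8.16 at 0 h. The mean of the stromal list went from 9.47 to 9.83 on uncultured arrays to between 7.85 and 8.61 in culture. Their part in the fall of the drivers and of GATA3 was not tested. The list of other drivers gave 4 genes higher and 13 lower of 18 tested, with a median difference of −1.03. KLF4, which acts ahead of CEBPB in mouse cells, went from 4.88 to the floor on all 6 arrays at 0 h, which makes its difference of −3.26 a bound. The coactivator NCOA1 fell by 1.92, while TLE3, a coregulator of PPARG, rose by 2.13 and the Mediator subunit MED1 by 0.94. Other repressors gave 3 higher and 13 lower of 19 (median −0.80), among them BHLHE40 (−2.76), IRF4 (−5.86) and NR2F2 (+1.70). Targets of PPARG and CEBPA gave 3 higher and 7 lower of 16 (median −0.57): the adipokine gene ADIPOQ fell by 4.32, PDK4 by 5.23 and ACSL1 by 1.98, while the lipogenic enzyme gene ME1 rose by 2.35. Over all 10176 genes 44% were higher and 29.7% lower, with a median difference of 0.19. KLF4 and IRF4 passed the filter through the uncultured groups alone, as did 4.41% of all genes, so these 2 had to be lower; none of the tested targets did.

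**Figure D3:**
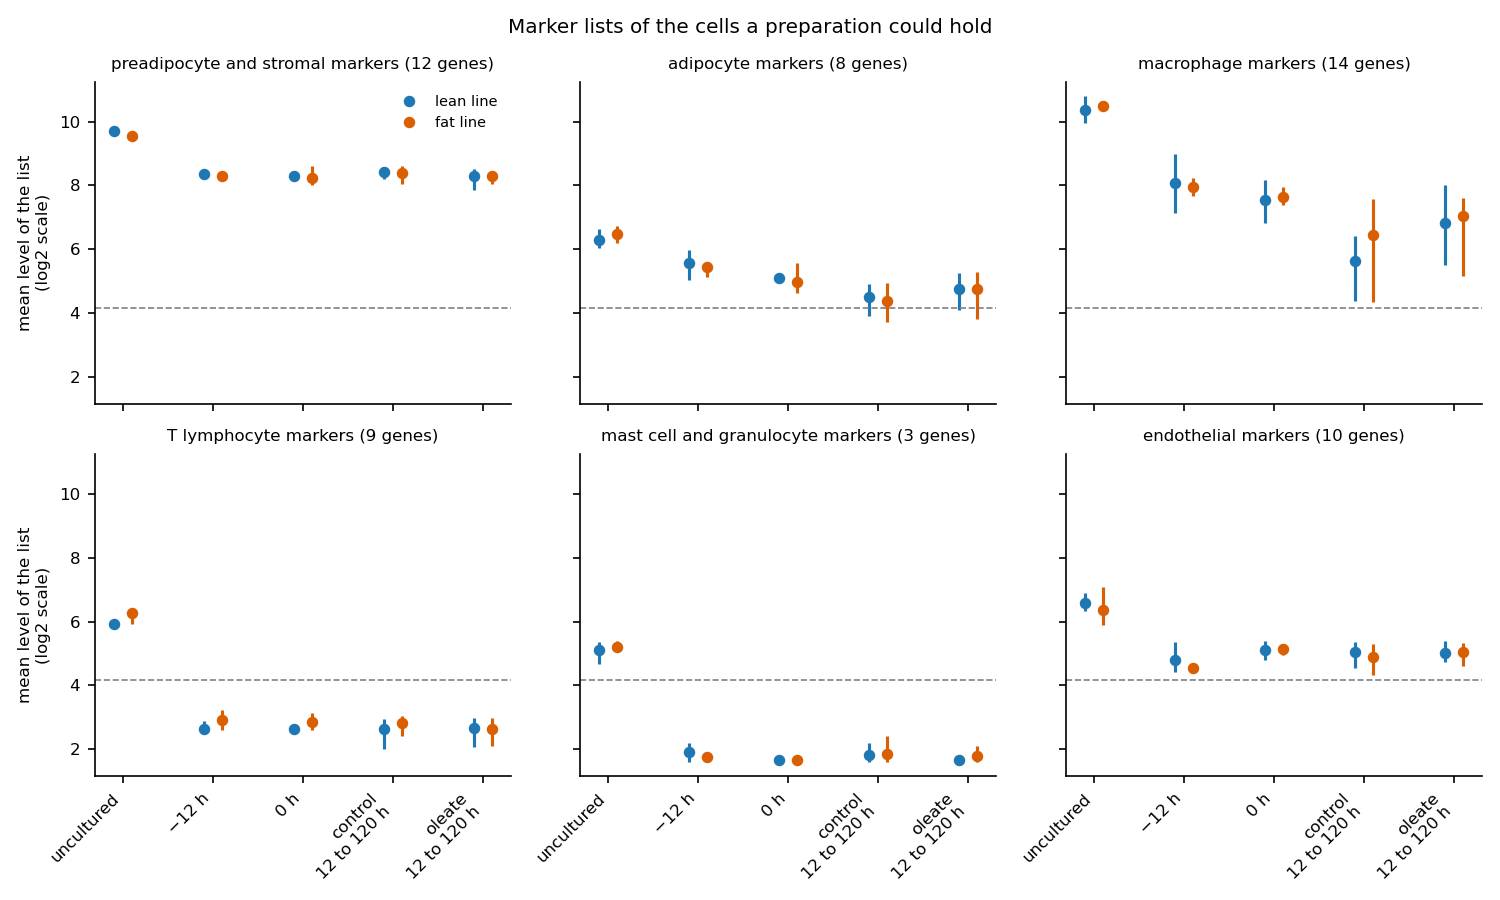
Mean level (log2) of 6 lists of marker genes by stage, uncultured, −12 h, 0 h, control and oleate; dots are means over arrays and bars run from the lowest to the highest array. T lymphocyte genes drop from 6.09 in uncultured cells to 2.78 at −12 h and 2.65 in oleate cultures. Macrophage genes go from 10.44 in uncultured cells to 6.05 in control and 6.94 in oleate cultures.

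From 50% to 95% confluence (−12 h to 0 h), both lines together and the fat line were compared only after the data were seen. In these comparisons PPARG was the only member called. By these labels the cells at 0 h had also been longer in culture, so confluence and time cannot be told apart in either line. Over both lines its level went from 8.06 to 7.24, a difference of −0.82 ± 0.18 (SE; 95% interval −1.18 to −0.46), or 1.76-fold lower (adjusted p = 0.00101, limma), in a comparison that called 15.2% of probe sets. All 6 arrays at −12 h lay above all 6 at 0 h, and the share of all probe sets so separated is not given. The second PPARG probe set, at 6.98 to 7.68 before and 6.00 to 6.71 after, fell by 1.02 (adjusted p = 0.000508). The third, at 5.47 to 5.97 before and 4.69 to 5.28 after, fell by 0.81 (adjusted p = 0.00619), though on passage it had not been called in either line (−0.02 and −0.20, adjusted p = 0.963 and 0.595). The other genes stood at −0.02 (EBF1), 0.02 (CEBPB), 0.16 (CEBPA) and −0.26 (GATA3), none called and none with an unadjusted p under 0.05. By line PPARG stood at −0.82 in both: adjusted p = 0.022 in the fat line, where 14% of probe sets were called, and 0.0776 in the lean line, where 1.9% were. In the lean line the second probe set was called (−1.09, adjusted p = 0.0383). The first was called there with the replicate block (0.0475) or the random block of line, arm and replicate number (0.0241). The arms of that random block were uncultured cells, control cultures from 12 h on, and all others. Arrays at −12 h and 0 h thus shared blocks with the oleate arrays of their line and number. The fat line arrays at the 2 stages differ in name style, which cannot be told apart from confluence there, and in that line the call was lost without −12 h replicate 1 (−0.76, adjusted p = 0.0807) or 0 h replicate 3 (−0.63, adjusted p = 0.154). The lean line arrays share one style, though confluence and time in culture still change together there.

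Genes around PPARG moved between −12 h and 0 h as well. Targets gave 1 higher and 5 lower of 16 (median −0.50), against 9.55% higher and 7.44% lower of all genes with a median of 0.00. The lipid droplet coat gene PLIN2 fell by 0.93, PDK4 by 1.31 and ACSL1 by 0.70, while ME1 rose by 0.47. Among 19 other repressors KLF2 fell by 1.09 and BHLHE40 by 0.57, and SMAD3 and NR2F2 rose by 0.58 and 0.51; 3 were higher and 3 lower in all (median −0.21). Among 18 other drivers MED1 rose by 0.34, and KLF9 and XBP1 fell by 0.72 and 0.36 (median 0.11). Of the 14 macrophage genes 2 were lower, and the list's mean was 8.02 at −12 h and 7.60 at 0 h; its part in the fall of PPARG was not tested.

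Oleate was compared with control medium over both lines and 4 hours. Here 35% of probe sets were called, 17.4% higher and 17.6% lower, and of the 5 tested genes EBF1 and PPARG were lower and CEBPB higher. Over the 24 control arrays EBF1 had a lowest, median and highest level of 7.20, 7.63 and 8.22, and over the 24 oleate arrays of 6.68, 7.25 and 7.76. The difference was −0.41 ± 0.07 (SE), 1.33-fold lower (adjusted p = 2.15e-06, limma). The oleate mean was lower in 8 of 8 combinations of line and hour, in 4 of them with no overlap between arrays. How many of all probe sets had such counts is not given, so the counts describe EBF1 only. By line EBF1 stood at −0.42 for lean (adjusted p = 0.000618) and −0.39 for fat cells (0.00123). The second EBF1 probe set missed the threshold at −0.22 (adjusted p = 0.0529). Its oleate mean was lower in 6 of 8 combinations, and arrays were apart in 1 with oleate lower and in 1 with oleate higher. In the fat line the call of EBF1 was lost without the 4 oleate arrays numbered 1 (−0.26, adjusted p = 0.056).

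PPARG averaged 7.08 with oleate and 7.35 in control, a difference of −0.26 ± 0.09 (SE, adjusted p = 0.0175, limma), with a lower oleate mean in 5 of 8 combinations of line and hour. In the lean line at 24 h control arrays read 7.20, 7.35 and 7.69 and oleate arrays 6.93, 6.94 and 7.01; at 72 h they read 7.62, 7.77 and 7.93 against 6.55, 6.98 and 7.18. In the fat line at 72 h they read 7.06, 7.27 and 7.56 against 6.65, 6.75 and 7.03. These were the 3 combinations without overlap, all with oleate lower, a count with no share over all probe sets beside it. At 12 h the oleate mean was the higher in both lines (0.02 for lean, 0.50 for fat cells). Averaged over hours the lean line stood at −0.45 ± 0.13 (adjusted p = 0.00686; 20.3% of probe sets called) and the fat line at −0.07 (adjusted p = 0.716; 25.5% called). The difference between the lines, 0.38 ± 0.18, was itself not called (adjusted p = 0.281; 1.85% called), so the lines were not shown to differ. The second probe set gave −0.54 (adjusted p = 5.78e-05) over both lines and the third −0.18 (0.195). For PPARG the call depended on the hours and arrays used: it was lost without 72 h (−0.13, adjusted p = 0.379), without 120 h (−0.20, 0.139) and without the control arrays numbered 1 of the fat line (−0.16, 0.151) or the lean line (−0.20, 0.075) or the fat oleate arrays numbered 3 (−0.23, 0.06), and stood at −0.44 (0.00087) without 12 h. With the random block of line, arm and replicate number the PPARG call was lost as well (adjusted p = 0.062), while EBF1 kept its call (0.000112).

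CEBPB moved the other way, by a small amount. Its control arrays had a lowest, median and highest level of 11.14, 11.58 and 12.45, and its oleate arrays of 11.25, 11.82 and 12.45, so the groups overlapped over nearly their whole range. The difference was 0.17 ± 0.06 (SE, adjusted p = 0.0355, limma), with the oleate mean higher in 7 of 8 combinations of line and hour. Neither line alone was called (0.13, adjusted p = 0.356, and 0.21, adjusted p = 0.0808), and the call was lost without 12 h (0.16), 24 h (0.13) or 72 h (0.17), with the random block (adjusted p = 0.126) and without any of 14 of the 48 arrays. CEBPA stood at 0.13 (adjusted p = 0.73), with its second probe set at −0.54 (0.114), called in the fat line alone (−0.98, 0.0475). GATA3 stood at 0.17 (adjusted p = 0.479) on levels at or near the floor, and GATA2, fitted without the filter, at 0.14 (0.769).

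**Figure D4:**
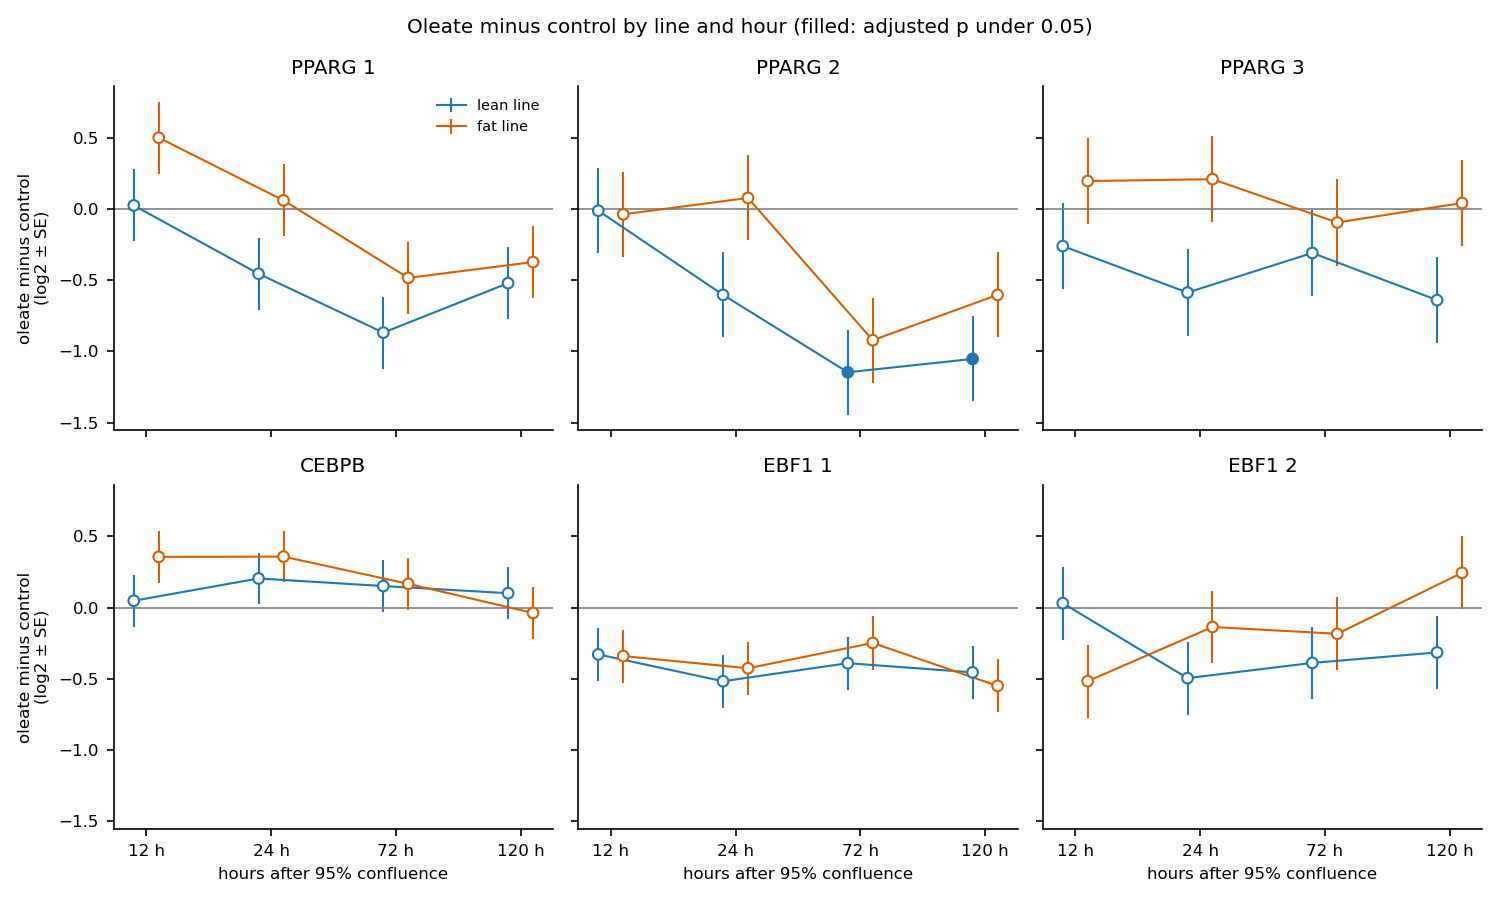
Oleate minus control (log2 difference ± SE) at 12, 24, 72 and 120 h in the lean (blue) and fat (orange) line, for the 3 PPARG probe sets, CEBPB and the 2 EBF1 probe sets. The first EBF1 probe set is under 0 at all 8 points, between −0.25 and −0.55, and the first PPARG probe set runs from 0.50 at 12 h in the fat line to −0.87 at 72 h in the lean line.

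At single hours of a line none of the 5 genes was called by limma. The share of probe sets called was 3.38%, 2.2%, 2% and 4.96% at 12, 24, 72 and 120 h for lean cells and 6.39%, 3.25%, 4.67% and 3.28% for fat cells. EBF1 had an unadjusted p under 0.05 in 5 of the 8 combinations and PPARG in 2. The nearest to a call was PPARG in the lean line at 72 h (−0.87, adjusted p = 0.0566), and the second PPARG probe set was called there (−1.15, 0.022) and at 120 h (−1.05, 0.0247). Change of the oleate effect from 12 to 120 h, called for 0.304% of probe sets, was called for none of the members, 1 of which had an unadjusted p under 0.05 (PPARG −0.71, adjusted p = 0.372). Oleate at 12 h against 0 h, the comparison of oleate with untreated cells in which nearly all arrays share a name style, called 0.549% of probe sets and none of the members, 0 of which had an unadjusted p under 0.05 (PPARG 0.21, adjusted p = 0.806; EBF1 −0.23, 0.622). That comparison also spans 12 h of culture, so oleate and time cannot be told apart in it, and it covers no later hour. In the comparisons of oleate with control medium the arrays differed throughout in name style, so treatment and style cannot be told apart. A shift between name styles was estimated as the confluence difference of the fat minus the lean line. That estimate also holds any other difference between the lines from −12 h to 0 h. It was called for 2.71% of probe sets and for none of the 5 genes (CEBPB 0.28, adjusted p = 0.749; EBF1 −0.30, 0.733, limma). With it subtracted, EBF1 stood at −0.10 (adjusted p = 0.938), PPARG at −0.27 (0.871), near its value in the main fit, and CEBPB at −0.11 (0.929), the last with its direction turned. Subtraction adds the error of the estimate to each difference, so these values cannot tell a style shift from noise.

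Of 16 tested targets of PPARG and CEBPA 7 were higher with oleate and 1 lower (median 0.14). The higher ones included PLIN2 (+1.86), ANGPTL4 (+1.52), PDK4 (+1.42) and ACSL1 (+0.92), which fatty acids are known to switch on through PPAR receptors in mammals. Of all genes 15.6% were higher and 19.2% lower, with a median of −0.03. Among 18 other drivers 2 were higher and 5 lower (median 0.03). EBF2, the close relative of EBF1 in brown fat precursors, fell by 0.66 (adjusted p = 1.1e-05) and ZNF423, a commitment factor, by 0.59 (1.85e-05), while MED1 rose by 0.52. Among 19 other repressors 2 were higher and 4 lower (median 0.00). BHLHE40 fell by 0.50 (adjusted p = 2.55e-06), ZNF521, an antagonist of ZNF423 and EBF1, by 0.29, and the deacetylase SIRT1 by 0.23, whereas the bone factor RUNX2 rose by 0.35 (0.0084). Macrophage genes moved too: 13 of 14 were higher with oleate, the list's mean running from 4.35 to 7.59 in control and from 5.18 to 8.02 in oleate. Of 10 stromal genes 2 were higher and 7 lower. Their part in the changes of EBF1, PPARG and CEBPB was not tested.

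The lines differ in abdominal fat, and fat minus lean asks which factors differ with it. In control medium 16.1% of probe sets were called and 1 of the 5 genes was, PPARG, at 7.17 for fat and 7.53 for lean cells (−0.36 ± 0.13 SE, adjusted p = 0.0424, limma). Its second probe set stood at −0.27 (adjusted p = 0.227) and the third at −0.62 (0.00321). The fat mean was the lower at each of the 4 hours, yet arrays overlapped at 12, 24 and 120 h. Control arrays of the fat line with replicate number 1 were the highest of their 3 at every hour: averaged over 4 hours, numbers 1, 2 and 3 read 7.60, 7.07 and 6.82 for fat and 7.77, 7.26 and 7.55 for lean cells. The call was lost when any of 13 of the 24 control arrays was left out, with differences from −0.37 to −0.27, and without any of 4 of the 6 replicate numbers of a line (−0.35 to −0.19). It was also lost with no filter (adjusted p = 0.0628), with the random block (0.143) and with only these arrays in the fit (0.122), and with the replicate block PPARG and EBF1 were both called (0.0266 and 0.0483). EBF1 stood at −0.24 (adjusted p = 0.0665). The macrophage list averaged 6.46 in fat and 5.64 in lean control cultures, with 6 of 14 genes higher and 1 lower; its part was not tested.

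**Figure D5:**
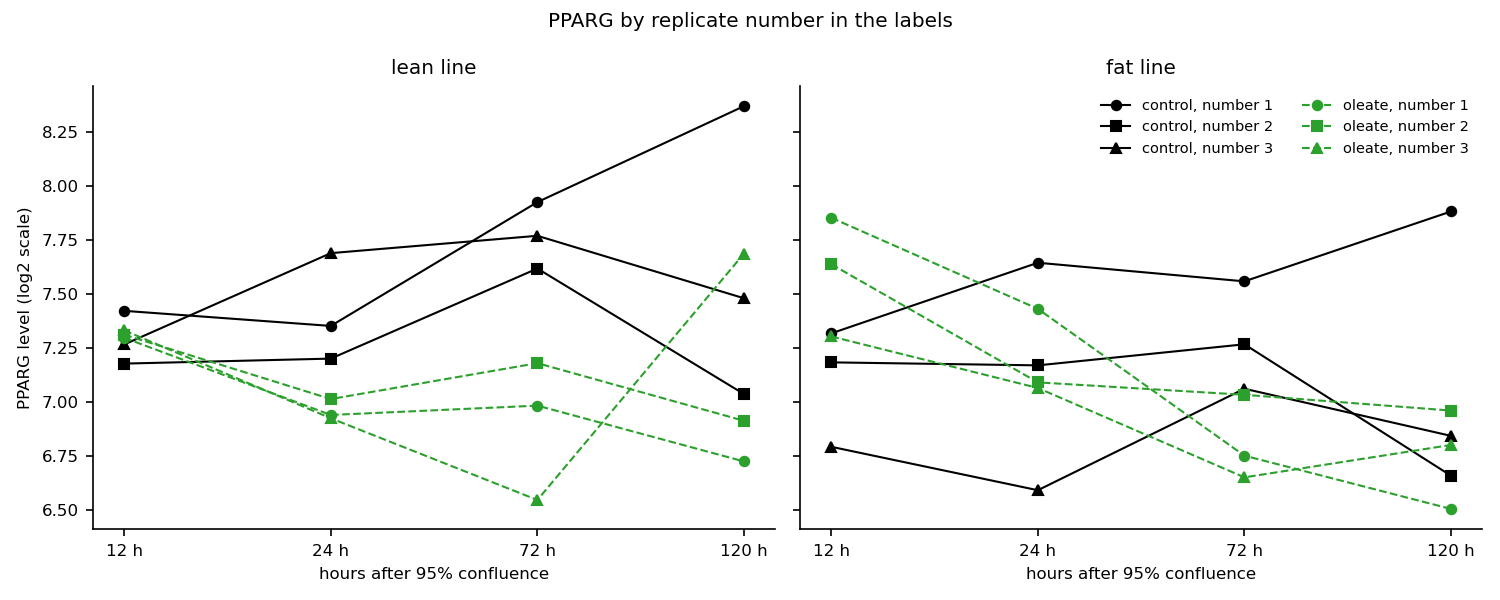
PPARG level (log2) on each array at 12, 24, 72 and 120 h in control medium (solid black) and with oleate (dashed green), in the lean and fat line; lines join arrays with the same replicate number in the labels. In the fat control cultures number 1 is highest at every hour, with a mean of 7.60 against 7.07 and 6.82.

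In oleate culture, in uncultured cells and at 0 h no member's representative probe set was called between lines by limma; at an unadjusted p under 0.05, 1 of 5 was in oleate culture (EBF1) and 0 in uncultured cells and at 0 h. With oleate, 15.3% of probe sets were called, and EBF1 stood at −0.21 (adjusted p = 0.125) and PPARG at 0.02 (0.947). In uncultured cells 2.85% were called; PPARG stood at 0.42 with all 3 fat arrays above the lean ones and an adjusted p of 0.463. At 0 h 8.08% were called, among them the second EBF1 probe set, at 5.47 to 6.05 for lean and 4.63 to 5.21 for fat cells (−0.85, adjusted p = 0.0279). Of other factors in control medium, 0 of 18 drivers were higher and 1 lower (the coactivator NCOA2, −0.49). Repressors gave 1 higher and 2 lower of 19 (CTNNB1 +0.12, SMAD3 −0.23, TCF7L2 −0.44) and targets 3 higher and 4 lower of 16, with FABP4, the fatty acid carrier of fat cells, at −1.33, ADIPOQ at −0.98, PDK4 at −0.91 and ME1 at −0.23. Of all genes 7.4% were higher and 9.77% lower.

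Time in culture (120 h minus 12 h) moved PPARG just past the threshold in oleate. With oleate its mean went from 7.46 at 12 h to 6.93 at 120 h, a difference of −0.52 ± 0.18 (SE, adjusted p = 0.0419, limma), where 13.3% of probe sets were called; neither the second (−0.50, adjusted p = 0.113) nor the third probe set (−0.43, 0.184) was called. For fat cells, where 3.14% of probe sets were called, the arrays of the 2 hours did not overlap and the difference was −0.84 (adjusted p = 0.0513); for lean cells, where 5.88% were, it was −0.21 (0.723). The lines were not shown to differ in it (−0.64, adjusted p = 0.77; 0% of probe sets called), and the call over both lines was lost when any of 9 of the 12 arrays was left out, with no filter (adjusted p = 0.0656) and with only these arrays in the fit (0.0958). In control medium, where 9.36% of probe sets were called, no member was, and 1 had an unadjusted p under 0.05 (CEBPA −1.08, adjusted p = 0.169). Other factors did change with time. In both media KLF15, an inducer of PPARG in mouse cells, rose (by 1.70 in control and 1.88 in oleate) and EBF3 fell (by 1.10 and 1.18). The repressor FOXO1 fell in both as well (by 0.62 and 0.76). Of the other repressors, TWIST2 and RUNX2 rose by 1.46 and 0.83 in control. With oleate NR2F2 and KLF3 rose by 0.48 and 0.53, and SMAD3 fell by 0.38. Of all genes 5.41% were higher and 5.38% lower in control, and 7.15% and 8.34% with oleate. Of the targets, CD36 fell by 2.17 in control and by 2.79 in oleate, where FABP4 fell by 2.31 and FASN by 0.46.

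Group means were also compared between genes, as a description over groups that share lines, media and array styles. Of 9920 genes, PPARG was most like PLPP1, KLF2 and JAM2, with Pearson r = 0.98, 0.96 and 0.95 over 22 groups; these were also its 3 nearest over the 20 cultured groups (0.91, 0.85 and 0.84). For EBF1 the nearest over 22 groups were KIAA1958 (0.98), FAM84B and BANP (both 0.97), and over the cultured groups LHX8 (0.90), PTN (0.86) and STK17B (0.85). CEBPB was nearest to IGF2BP3 (0.91), ELF1 and SH2D1B (both 0.90) over 22 groups, and to CHCHD2 (0.79), ORMDL2 and MRPL42 (both 0.78) in culture. GATA3 was nearest over 22 groups to RNF34, to the histamine enzyme gene HDC and to the T cell cytokine gene IL2 (all 0.96), and CEBPA to ENTPD2 (0.94), UGCG and ICOS (both 0.93). As GATA3, CEBPA and HDC passed the filter through the uncultured groups alone, these values rest on those groups. The values of PPARG, EBF1 and CEBPB over 22 groups also take in the fall from the uncultured groups. For EBF1 and CEBPB none of the 3 nearest genes recurred over the cultured groups. Over the cultured groups, where GATA3 and CEBPA lay near background, GATA3 was nearest to SLC25A10 (0.76), OSR2 (0.69) and RNF25 (0.67). CEBPA was there nearest to MGAT4A, RPLP2 (both 0.75) and SMIM4 (0.74). GATA2, never far above background, reached 0.68 at most, with CDK15.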

How the data were processed

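The authors deposited a single matrix of 38535 probe sets by 66 arrays. Its unit was taken as log2 from the deposited values, whose lowest and highest are −5.23 and 13.5 and whose median is 4.17 for each array; an error in the log base would scale all differences alike. Sorted arrays differed by at most 0.0615, so they have nearly the same distribution. The submitters' processing notes name MAS5 without its version or use; background and normalization steps are not given in the sources used here. No genome was used, no sequences were printed, and precision is limited by the number of arrays. No column was of another sample.

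Probe sets were named through the platform annotation (27178 name 1 gene, 177 several, 11180 none). Values were floored at 1.61 (the 20th percentile), 96 control probe sets were left out, and a probe set was tested if some group had all 3 of its arrays over the array median (50th percentile). One model of 22 group means was fitted with limma 3.58.1 in R 4.3.3 (trended, robust; 44 residual and 5.79 median prior degrees of freedom; statmod 1.5.0; version 1.17.8 of the data.table package) for 38 comparisons. Tests were two-sided. The code was tested on simulated data. Tables and figures used Python 3.11.15, pandas 2.3.3 and matplotlib 3.10.9.

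All probe sets of the 6 genes were named. From the lists of other drivers (18 tested of 26 listed), other repressors (19 of 29) and targets (16 of 21), up to 4 called genes with the smallest p were picked in 5 comparisons. The genes named came from these, but not every gene so picked was named. At confluence the same rule was used after the data were seen, and a few genes that changed with time in both media were named for both. The 3 most correlated genes were named as most like a member. The members and lists were chosen with earlier results of these data known. Comparisons of both lines over passage and confluence, and of the fat line at confluence, were added after seeing the data.

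Replicate numbers were checked for pairing by the correlation of deviations from group means: all 6 pairs of oleate at 12 h and 0 h exceeded 0.1 (0.177 to 0.365), and 5 of 6 pairs of 0 h and −12 h, 5 of 6 and 4 of 6 pairs of 120 and 12 h in control and in oleate, and 4 of 24 pairs of oleate and control did. As not every pair exceeded it in any but the first, the block was kept as an alternative. Pairs of 0 h and −12 h ran from 0.0968 to 0.293. Those of 120 and 12 h ran from 0.071 to 0.217 in control and from 0.05 to 0.193 in oleate, so all were positive. The main fit treats these arrays as independent, and its p-values may be too small where several hours are averaged.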

Additional observations from a re-analysis of the deposited data

How the results depend on the processing

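Each comparison was refitted under other settings. Of 2679 values for single genes 2584 stayed on their side of the threshold, 78 lost the call and 16 gained one. A further 1, called in the main fit, turned direction: CEBPB under oleate, at −0.11 less the name style shift. Values called in neither fit were counted as staying, whatever their direction. The fits without an hour, and those without the arrays of a line, medium and replicate number, were not planned beforehand. The number of the 5 genes called moved as follows. The share of all probe sets called under each setting is not given beside these counts. A rise or fall in a count is therefore not read as one particular to the members. For oleate over both lines it was 3, but 1 with the random block of line, arm and replicate number (consensus correlation 0.166 over 18 blocks). That block puts −12 h, 0 h and oleate arrays of a line and number together. It was 0 less the name style shift, an estimate whose own error is added by the subtraction. The number was 2 to 3 without single arrays, and down to 1 without the arrays of a line, medium and replicate number (a series) or of an hour. For oleate in the lean line it was 2, 0 less the shift, 2 without any single array and 1 to 2 without a series; in the fat line it was 1, 0 less the shift, 1 to 2 without single arrays and 0 to 1 without a series. For the line difference in control it was 1, 0 with no filter and with the random block, 2 with array weights and with the replicate block, and 0 to 2 without single arrays; with only its own arrays PPARG lost and EBF1 gained the call. For time in oleate it was 1, but 0 with no filter or only its own arrays, and 0 to 1 without single arrays or a series. The line differences in oleate culture, in the oleate effect and in time in oleate were 0, but 1 with array weights and 0 to 1 without a series; without single arrays the first was 0 to 1 and the others 0. For confluence in the lean line it was 0, but 1 (PPARG) with the replicate block (adjusted p = 0.0475), with the random block (0.0241) and with the mean over probe sets (−0.91, 0.0297). Over all single hours of a line it was 0, but 1 with the stricter filter, the replicate block or the random block and 4 with array weights. For the culture effect it was 5, and 3 with the stricter filter, which does not test CEBPA and GATA3. For oleate at 12 h against 0 h the replicate block changed no call. That block gives each replicate number a single effect over both lines, so it does not test pairing within a line. GATA3's culture difference was −5.10 without the floor. The cause of each change was not tested, apart from the filters, which change what is tested. Levels near the floor limit CEBPA, GATA2 and GATA3 in culture.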

Other observations

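The members were also set against each other. Over the 22 group means the drivers and the repressor GATA3 ran together: Pearson r was 0.90 between PPARG and EBF1, 0.89 between EBF1 and GATA3, 0.87 between CEBPA and GATA3 and 0.82 between PPARG and GATA3. Over the 20 cultured groups the same pairs gave 0.45, −0.36, 0.08 and −0.22. The first set of values rests on the 2 uncultured groups, in which all these genes were highest, and the groups share lines, media and array styles.

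Probe sets of one gene differed in how far they moved. For PPARG the 3 probe sets had r = 0.97 and 0.81 with the first over 22 groups and 0.91 and 0.82 over the cultured groups, and the third, at 5.62 to 6.46 on uncultured arrays, did not change on passage while the first fell by 1.24 for lean and 1.60 for fat cells. For EBF1 the 2 probe sets had r = 0.97 over 22 groups and 0.71 in culture.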
